A study of Mus musculus with 9 samples.

Results

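The nuclear genes for oxidative phosphorylation were followed in tibialis anterior, a fast muscle of the lower leg, of male C57BL/6J mice. Genes were taken by symbol from the deposited tables. They were the subunit genes of NADH dehydrogenase (complex I), succinate dehydrogenase (complex II), the cytochrome bc1 complex (complex III), cytochrome c oxidase (complex IV) and ATP synthase (complex V), together with cytochrome c. The rule found 86 genes among the 14300 that both tables list. Of these, 36 belonged to complex I, 4 to complex II, 9 to complex III, 19 to complex IV and 17 to complex V, and Cycs encoded cytochrome c. The mice formed 3 groups of 3 libraries: control mice, mice that had lost their testes by orchiectomy (ORX), and ORX mice that received the androgen dihydrotestosterone (ORX+DHT). Muscles were taken 4 weeks after treatment. The labels give every group the same strain and sex, and the age of the mice and the dose of the hormone are not given in the sources used here. The comparisons ask how these transcripts differ when the main source of circulating androgen is removed and when an androgen is supplied to such mice.

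Oxidative phosphorylation couples the oxidation of NADH and succinate to the making of ATP in the inner mitochondrial membrane. Complexes I, III and IV pass electrons towards oxygen and pump protons, complex II feeds electrons from succinate without pumping, and complex V lets the protons return and makes ATP. Most subunits are encoded in the nucleus and are known to be expressed together, and in muscle several complex IV subunits occur as a form found mainly in heart and skeletal muscle and a form found in most tissues. The 13 subunits encoded by mitochondrial DNA were not analysed here. Many of these genes also have processed pseudogenes elsewhere in the genome, so reads of a gene and its copies may be split, and the level of any one gene is uncertain to that extent.

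Values are normalised counts: reads per gene divided by a scaling factor of the library, printed on 1 scale for all 9 libraries. Between 1340209 and 1682235 reads per library lay on the listed genes. A gene entered a test when its mean was at least 10 normalised counts. This kept 83 of the 86 genes in each comparison, and Cox4i2, Cox5b-ps and Cox6b2 fell below it. Skeletal muscle fibre genes marked the tissue: the 9 genes of that list, among them the fast myosins Myh4 and Myh1 and the general fibre genes Acta1, Ckm and Mb, summed to 269600 to 347200 normalised counts in a library, and the 7 of a slow fibre list to 155 to 326. In bulk muscle, fewer mitochondria-rich fibres and less RNA per fibre cannot be told apart.

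Control replicate 1 stood apart from the other 8 libraries in these genes. The 86 genes summed to 77633, 49589 and 50265 normalised counts in the controls, to 42580, 46726 and 47905 after orchiectomy and to 49626, 48063 and 51009 with dihydrotestosterone. They took 4.64% of the reads in control replicate 1 and 3.05 to 3.44% in the others. The group means of the sum were 59162 ± 16000 (SD, n = 3) in controls, 45737 ± 2797 in ORX and 49566 ± 1474 in ORX+DHT, so the control spread exceeded any difference between group means. By summed normalised counts the other two control libraries lay above all ORX libraries and within the range of ORX+DHT. By share of reads they did not stand above ORX, at 3.28% and 3.37% against 3.05 to 3.44%.

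**Figure D1:**
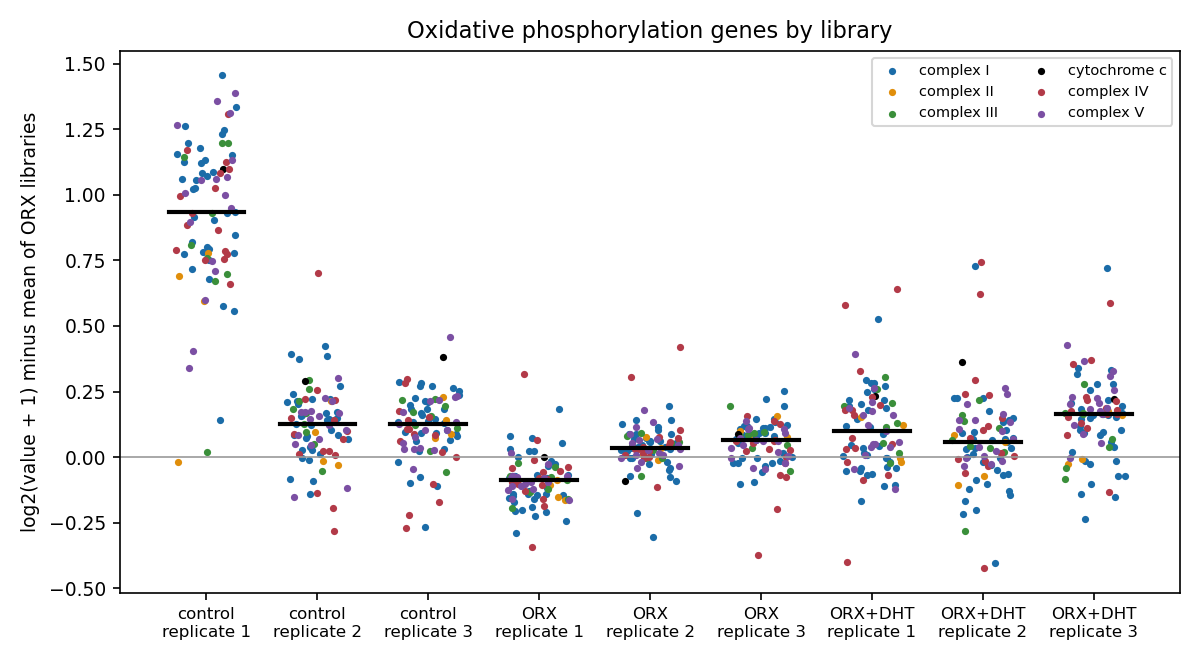
Each point is 1 of the 83 tested genes in 1 of the 9 libraries (x axis), as log2(value + 1) minus the mean of that gene in the ORX libraries (y axis); colours mark the complex and black bars the median of a library. The median is 0.93 in control replicate 1, 0.13 in the other two controls, -0.09 to 0.07 in ORX libraries, and 0.06 to 0.16 in those of ORX+DHT.

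The excess in control replicate 1 was shared by nearly every subunit. Its value was above both other controls for 81 of the 83 tested genes and the highest of all 9 libraries for 80. The ratio to the mean of controls 2 and 3 had a median of 1.80 and ran from 0.908 for Sdha, the flavoprotein of complex II, to 2.39. These genes have short transcripts: the median length was 737 bases against 2716 for all genes in both tables, and 84 of the 86 lay below that latter median. Across the 83 genes, the log2 difference of control replicate 1 from the other controls had a Pearson correlation of -0.58 with log2 transcript length, and across the 8512 other tested genes it was -0.57. Genes are not independent replicates and all points come from the same 3 libraries, so these are descriptions. Among all genes, those with transcripts under 1000 bases had a median of 0.79 (log2) above the ORX mean in this library, and those of 4000 bases or more a median of -0.33. In the other 8 libraries the median of the short genes lay between -0.05 and 0.07.

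**Figure D2:**
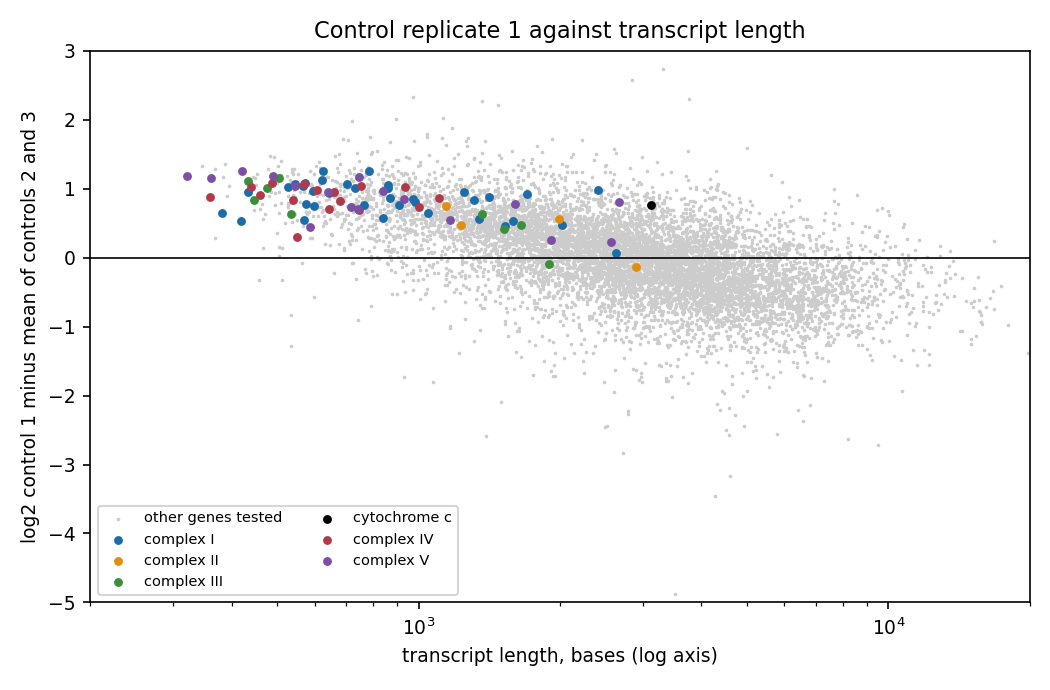
Each point is a gene; the x axis is the transcript length in bases (log axis) and the y axis is log2(value + 1) in control replicate 1 minus the mean of controls 2 and 3. Grey points are 8512 other tested genes and coloured points the 83 oxidative phosphorylation genes, which sit at the short end and, with 2 exceptions, above 0.

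A second property of this library was the level of Actc1, the cardiac form of alpha-actin, which is also made in immature muscle. It stood at 6967 normalised counts in control replicate 1 and at 445 to 1851 in the other 8 libraries. The remaining measured genes of the cardiac list stayed low in every library, with Tnni3, cardiac troponin I, at 0 to 1.11 and Myh6, the alpha cardiac myosin, at 3.75 in control replicate 1 and 6.62 to 16.2 elsewhere. Of the 6 genes on that list, 4 were measured. Counts, medians and log2 differences against control are therefore given with and without control replicate 1. The part of Actc1-expressing cells in the subunit values was not tested.

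With all 3 controls, all 83 tested genes had a lower mean in ORX than in control, and none passed the test. The median log2 difference (the log2 fold change on the log2(value + 1) scale) was -0.39, against -0.008 over all 8631 genes tested. At an adjusted p under 0.05, limma called 0 of the 83, where 0.0579% of all genes were called, and the lowest limma adjusted p was 0.669. At an unadjusted p under 0.05, limma picked 18 genes, all lower in ORX (4.04% of all genes). Neither edgeR nor DESeq2 called any of the 83 at an adjusted p under 0.05. The 3 ORX values lay below the 3 control values for 32 genes (8.06% of all genes).

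Without control replicate 1 the difference shrank. The median log2 difference was -0.12, against -0.015 over all genes, with 74 genes lower and 9 higher in ORX. None was called (0.602% of all genes were), 13 had an unadjusted p under 0.05, all lower (6.08% of all genes), and the lowest limma adjusted p was 0.277. The 3 ORX values lay below both remaining controls for 34 genes (14.9% of all genes). Among all genes with transcripts under 1000 bases, the median moved from -0.25 to -0.006 when this library was left out, and among the 56 subunit genes of that length it moved from -0.42 to -0.12. With all 3 controls and a correction for transcript length, the median was -0.16, with 77 genes lower and 6 higher and none called. The size of the difference thus depended on control replicate 1, and 74 of 83 genes stayed lower in ORX without it. That fit kept the scaling of the deposited values. By share of reads, controls 2 and 3 lay within the ORX range, at 3.28% and 3.37% against 3.05 to 3.44%. The share of the summed genes thus did not separate these groups, and it does not give the direction of single genes.

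By complex, the median log2 difference in ORX against control was -0.40 for complex I, -0.25 for complex II, -0.38 for complex III, -0.38 for complex IV and -0.42 for complex V. Leaving out control replicate 1 gave -0.14, -0.07, -0.12, -0.09 and -0.13. No complex had a median above 0 in either setting, and complex II had the smallest difference in both.

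**Figure D3:**
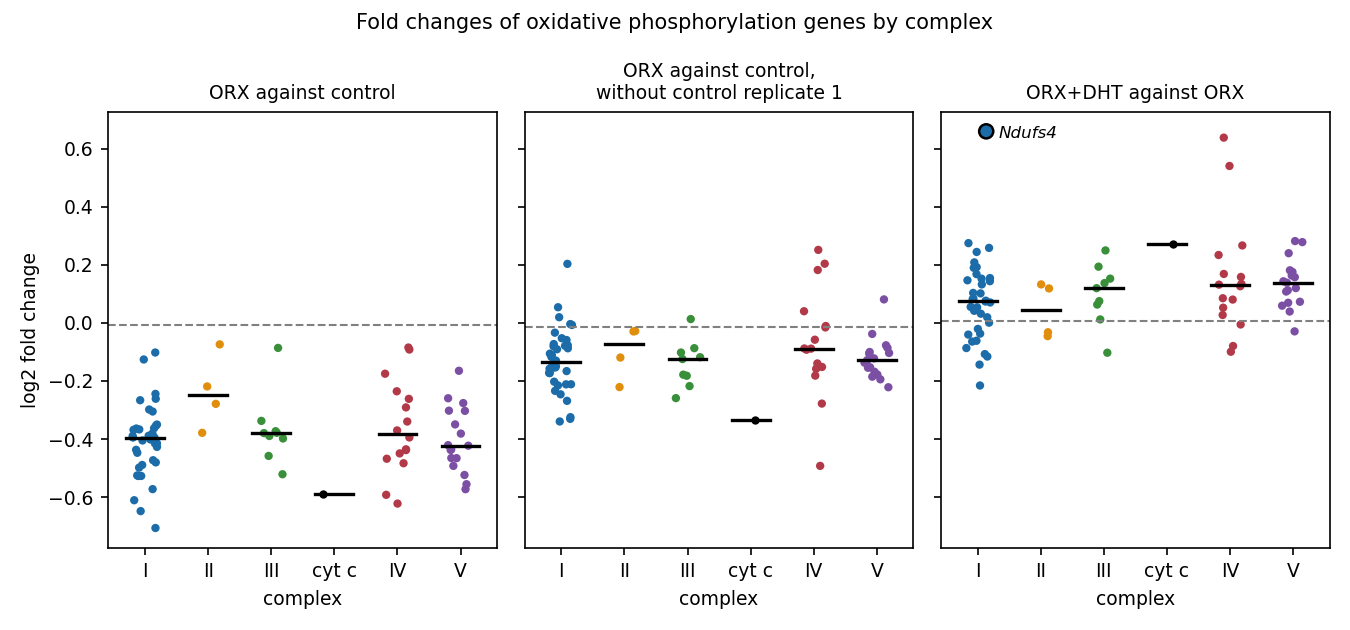
Log2 fold change (y axis) of each tested gene by complex (x axis) in ORX against control, the same without control replicate 1, and ORX+DHT against ORX; black bars are medians of a complex and the dashed line is the median of all genes tested. The ringed point is Ndufs4, the 1 gene called by limma, at 0.66.

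ORX+DHT libraries were compared with the same 3 ORX libraries, a comparison that control replicate 1 does not enter. Ndufs4 rose, and no other subunit gene passed the test. limma called 1 of 83 genes higher and 0 lower at an adjusted p under 0.05, where 2.38% of all 8770 genes were called higher and 1.7% lower. A count of 1 of 83 does not set the subunit genes apart from all genes, and it changed with the processing. Most genes were slightly higher with dihydrotestosterone: 66 of 83 had a higher mean and 17 a lower one, against 50.8% higher over all genes, and the median log2 difference was 0.11, against 0.006. Under quantile normalisation the split was 54 higher and 29 lower, with a median of 0.04. At an unadjusted p under 0.05 there were 15 genes, all higher (7.91% of all genes). The 3 ORX+DHT values lay above the 3 ORX values for 23 genes (10.4% of all genes) and below them for 2 (9.13%), Ndufa2 and Ndufb3, both complex I accessory subunits and named here after their values were seen.

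Several markers of other cells moved between the same groups. The 5 genes of a fibroblast list summed to 2876 to 3841 normalised counts in ORX, against 1700 to 2388 in ORX+DHT and 1352 to 2729 in control. The 5 endothelial genes summed to 698 to 855 in ORX, 861 to 937 in ORX+DHT and 647 to 830 in control, so that they were higher with dihydrotestosterone than in ORX without overlap. The 4 Schwann cell genes summed to 135 to 155 in ORX, 91.2 to 128 in ORX+DHT and 94.0 to 99.3 in control. The slow fibre list summed to 271 to 311 in ORX, 155 to 232 in ORX+DHT and 200 to 326 in control, which overlapped with both. All genes of these 4 lists were measured, and none was at 0 in every library. The sum of the skeletal muscle fibre list was lower in ORX (269600 to 279140) than in ORX+DHT (280100 to 302560), but its genes went both ways. Acta1, skeletal alpha-actin, had a mean of 46595 in ORX and 64541 in ORX+DHT, and Myh1, Mb, Tnnt3 and Ckm also had higher means with dihydrotestosterone. Myh4, the myosin of the fastest fibres, had a mean of 80660 in ORX and 76012 in ORX+DHT, and the fast fibre genes Pvalb, Actn3 and Atp2a1 also had lower means. The part of these shifts in the subunit values was not tested.

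Complex I takes electrons from NADH. Ndufs4 encodes an accessory subunit at the junction of its NADH-binding part, needed for stable assembly of the complex. It stood at 482, 263 and 244 normalised counts in control replicates 1 to 3, at 185, 221 and 197 in ORX and at 289, 333 and 331 in ORX+DHT. All ORX+DHT values lay above all ORX values, and above controls 2 and 3 but below control replicate 1. Its log2 difference in ORX+DHT against ORX was 0.66 (SE 0.10, limma adjusted p = 0.000546), higher in 3 of 3 libraries. It stayed called with every ORX or ORX+DHT library left out, with limma adjusted p between 0.000995 and 0.00556. With all 9 libraries in 1 fit, whose spread includes the controls, the limma adjusted p was 0.205. In ORX against control its log2 difference was -0.65 (limma adjusted p = 0.669) and without control replicate 1 it was -0.34 (limma adjusted p = 0.280), the ORX values lying below every control.

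The gene lies on mouse chromosome 13 (GRCm38, GENCODE M21, minus strand, 114287795 to 114388258). Its 5′ flank is shown because it is the called gene, beside that of Cox6a1, a complex IV subunit with 1 of the larger differences that did not pass the test. The 250 bases before the RefSeq start (GRCm38.p6) were searched, and those that also lie before the GENCODE start are printed 5′ to 3′ on the gene's own strand. GENCODE begins the gene upstream of the RefSeq start, by 164 bases in Ndufs4 and 23 in Cox6a1. Capitals mark matches to any of 5 short motifs searched on both strands, which are TGCGCA (NRF1), CCGGAAG (ETS factors such as GABPA), AAGGTCA (ERR), CCATNTT (YY1) and AGAACA (1 arm of the androgen receptor element).
Ndufs4 chr13:114388259-114388344 minus: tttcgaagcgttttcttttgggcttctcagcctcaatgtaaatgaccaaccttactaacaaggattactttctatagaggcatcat
Cox6a1 chr5:115348982-115349208 minus: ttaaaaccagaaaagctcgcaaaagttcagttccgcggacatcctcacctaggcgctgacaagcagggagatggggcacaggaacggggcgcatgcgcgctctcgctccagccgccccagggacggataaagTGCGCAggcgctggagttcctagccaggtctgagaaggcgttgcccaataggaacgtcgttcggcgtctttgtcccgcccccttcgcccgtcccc
The 86 printed bases of Ndufs4 held no match. Its 1 match in the 250 bases, AGAACA with its first base at -65 from the RefSeq start, lies inside the gene as GENCODE draws it. In Cox6a1, TGCGCA lay at -118, and the ETS motif, in reverse, at -16 inside the GENCODE gene. TGCGCA reads the same on both strands, and these matches do not overlap. Only exact copies of the 5 short motifs were marked, so longer or variant sites of the same factors were not searched. Counted on either strand, 1 GENCODE exon overlaps the printed bases of Cox6a1 and 0 those of Ndufs4. RefSeq windows of 300 bases (250 before to 50 after the start) were found for 68 of the 86 genes, 73 windows in all, and in 42 of the 68 the GENCODE gene begins within the 250 bases before the RefSeq start. TGCGCA occurred in 26.0% of the 73 windows, in 14.4% of the windows of all tested genes and in 7.76% of all 32851 windows. For the ETS motif the shares were 23.3%, 18.3% and 8.86%, for the ERR motif 11.0%, 3.09% and 4.72%, and for the YY1 motif 27.4%, 15.6% and 16.1%. AGAACA occurred in 13.7%, 11.9% and 19.0%. Median GC content was 57.7%, 61.3% and 52.7% in the same order. These are matches of letters and say nothing of binding.

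With dihydrotestosterone the other complex I genes had smaller differences. Ndufb7, an accessory subunit of the membrane arm, had the lowest fold change of complex I after orchiectomy. It stood at 473, 231 and 203 normalised counts in control muscle, 175, 173 and 168 in ORX and 211, 201 and 206 in ORX+DHT, with no overlap of ORX with either group. Its log2 difference after orchiectomy was -0.71 (limma adjusted p = 0.669), or -0.33 without control replicate 1 (limma adjusted p = 0.291), and 0.26 with dihydrotestosterone (limma adjusted p = 0.193).

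At the other end, the group means of Ndufs1, the largest core subunit, differed by less than the range of its ORX replicates. It stood at 974, 924 and 941 in controls, 790, 948 and 917 in ORX and 887, 925 and 974 in ORX+DHT, and all groups overlapped. Its log2 differences were -0.10 after orchiectomy (-0.08 without control replicate 1) and 0.07 with dihydrotestosterone. Ndufv1, the NADH-binding core subunit, stood at 1149, 792 and 875 in controls, 729, 805 and 780 in ORX and 794, 697 and 828 in ORX+DHT, with a log2 difference of 0.00 with dihydrotestosterone, whose sign was negative under other scalings. Ndufb2, a membrane arm accessory subunit, had the lowest fold change with dihydrotestosterone, -0.22 (limma adjusted p = 0.604), from 80.5, 57.1 and 76.9 in ORX to 62.8, 53.2 and 67.2 in ORX+DHT, and these overlapped. Over the 36 genes, 26 were higher and 10 lower with dihydrotestosterone, with a median of 0.07.

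Complex II links the citric acid cycle to the chain. Sdha stood at 2149, 2328 and 2402 normalised counts in control muscle, 1961, 2293 and 2296 in ORX and 2422, 2307 and 2435 in ORX+DHT. Here control replicate 1 was the lowest control, and ORX+DHT lay just above ORX without overlap, with a log2 difference of 0.13 (SE 0.08, limma adjusted p = 0.487) that turned to -0.01 under quantile normalisation. Sdhb, the iron-sulphur subunit, stood at 1365, 787 and 836 in controls, 749, 790 and 852 in ORX and 793, 739 and 782 in ORX+DHT. Apart from control replicate 1 its libraries overlapped throughout, and its log2 difference with dihydrotestosterone was -0.05. Sdhd, a membrane anchor, had the lowest value of the complex after orchiectomy, -0.38 (limma adjusted p = 0.676) and -0.22 without control replicate 1 (limma adjusted p = 0.429). Its ORX values of 398, 438 and 450 lay below the controls' 692, 496 and 502. With dihydrotestosterone 2 of the 4 genes were higher and 2 lower.

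Complex III passes electrons from ubiquinol to cytochrome c. Uqcrc1, a core scaffold subunit, stood at 2528, 1810 and 1814 normalised counts in control muscle, 1396, 1648 and 1646 in ORX and 1928, 1744 and 1891 in ORX+DHT. ORX lay below both other groups, and the log2 difference with dihydrotestosterone was 0.25 (SE 0.08, limma adjusted p = 0.123). Its partner Uqcrc2 changed less, from 783, 888 and 891 in ORX to 886, 937 and 957 in ORX+DHT, and stood at 864, 930 and 921 in controls. All of these overlapped, and control replicate 1 was again the lowest control. Cyc1, cytochrome c1, stood at 1370, 1054 and 1002 in controls, 815, 884 and 879 in ORX and 982, 999 and 965 in ORX+DHT. The 3 groups did not overlap, with ORX lowest and control highest. Its log2 difference was -0.40 after orchiectomy (limma adjusted p = 0.670), -0.26 without control replicate 1 (limma adjusted p = 0.277, the lowest of the 83 genes) and 0.19 with dihydrotestosterone (limma adjusted p = 0.218).

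The remaining members of complex III lay close together. Uqcrfs1, the Rieske iron-sulphur protein, stood at 773, 819 and 874 in ORX and at 889, 844 and 861 in ORX+DHT, a log2 difference of 0.08. Uqcrh, the hinge protein, had the lowest value after orchiectomy, -0.52 (limma adjusted p = 0.695), which was -0.18 without control replicate 1. Uqcr11, a small subunit, was the 1 gene of the 9 with a lower mean in ORX+DHT than in ORX, at -0.10.

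Cytochrome c carries electrons between complexes III and IV. Cycs stood at 322, 184 and 196 normalised counts in control muscle, 150, 141 and 160 in ORX and 176, 193 and 175 in ORX+DHT. The ORX values lay below all others, while ORX+DHT overlapped with controls 2 and 3. Its log2 difference was -0.59 after orchiectomy (limma adjusted p = 0.669), -0.34 without control replicate 1 (limma adjusted p = 0.298) and 0.27 with dihydrotestosterone (SE 0.10, limma adjusted p = 0.208). Cycs has the longest transcript of the 86 genes, at 3123 bases, and was still 1.70 times as high in control replicate 1 as in the other two controls.

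**Figure D4:**
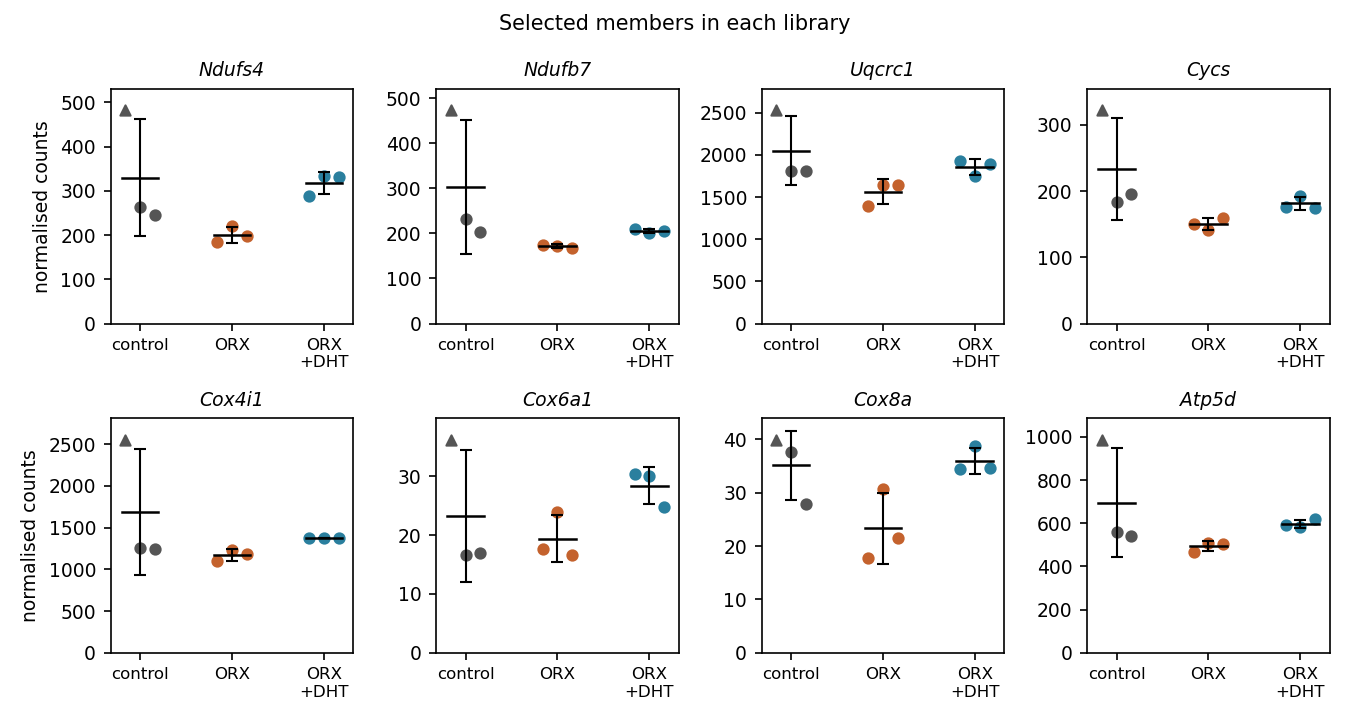
Normalised counts (y axis, from 0) of 8 genes in the 3 libraries of each group (x axis); points are libraries, triangles control replicate 1, lines means and bars ± SD (n = 3). ORX+DHT lies above ORX without overlap in all 8, and control replicate 1 is the highest value in each. Such separation held for 23 of the 83 tested genes (10.4% of all genes), so the 8 do not stand for the set.

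Complex IV reduces oxygen to water. Cox4i1, its main subunit 4, stood at 2555, 1253 and 1240 normalised counts in control muscle, 1094, 1230 and 1188 in ORX and 1372, 1381 and 1372 in ORX+DHT. The ORX+DHT libraries lay above all of ORX and above controls 2 and 3, with a log2 difference against ORX of 0.23 (SE 0.08, limma adjusted p = 0.112). Cox8a, the form of subunit 8 found in most tissues, had the largest fold change of the complex, 0.64 (SE 0.22, limma adjusted p = 0.147). It stood at 40.0, 37.6 and 27.8 in controls, 17.7, 30.7 and 21.5 in ORX and 34.5, 38.7 and 34.6 in ORX+DHT, which rest on 18 to 40 reads per library. ORX+DHT lay above ORX and ORX overlapped with control. Cox6a1, the widely expressed form of subunit 6a, stood at 36.2, 16.6 and 16.9 in controls, 17.7, 23.9 and 16.5 in ORX and 30.4, 30.0 and 24.7 in ORX+DHT, with a log2 difference of 0.54 (SE 0.23, limma adjusted p = 0.270). ORX+DHT lay above ORX and above controls 2 and 3, on 15 to 31 reads per library.

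The muscle forms of the same subunits had higher levels per kilobase of transcript in ORX, 1141 normalised counts for Cox6a2 against 33.9 for Cox6a1 and 1184 for Cox8b against 42.4 for Cox8a. Cox6a2 stood at 1332, 786 and 719 in controls, 692, 786 and 850 in ORX and 737, 756 and 820 in ORX+DHT. Cox8b stood at 868, 495 and 445 in controls, 409, 426 and 444 in ORX and 436, 448 and 473 in ORX+DHT. For both forms ORX and ORX+DHT overlapped, with log2 differences of -0.01 and 0.08. Cox7a1, the muscle form of subunit 7a, had the lowest value of the complex after orchiectomy, -0.62 (limma adjusted p = 0.675), or -0.28 without control replicate 1 (limma adjusted p = 0.361). It stood at 1062, 512 and 527 in controls, 376, 438 and 478 in ORX and 538, 460 and 553 in ORX+DHT, where ORX and ORX+DHT overlapped. Cox7a2, the general form, stood at 517, 268 and 268, at 235, 242 and 246 and at 277, 240 and 275 in the same order.

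The ratio of muscle to general form was taken within a library on value + 1, so that the scaling enters it only through the added 1. For Cox6a2 over Cox6a1 the mean log2 ratio was 5.33 ± 0.16 (SD, n = 3) in control muscle, 5.27 ± 0.31 in ORX and 4.72 ± 0.24 in ORX+DHT. ORX+DHT lay below control in every library, by 0.61 (exact permutation test, two-sided, p = 0.1, the smallest that 3 against 3 allows). For Cox8b over Cox8a it was 4.01 ± 0.37 in control muscle, 4.17 ± 0.37 in ORX and 3.62 ± 0.12 in ORX+DHT, which lay below ORX in every library, by 0.55 (exact permutation test, p = 0.1). For Cox7a1 over Cox7a2 it was 0.98 ± 0.05, 0.83 ± 0.14 and 0.97 ± 0.04, and every pair of groups overlapped. All 9 such comparisons had adjusted p of at least 0.3 by the exact permutation test, and the design could not reach 0.05.

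Among the other related forms, Cox4i2, Cox6b2 and Ndufa4l2 were near the filter or below it, while Cox6b1, Ndufa4 and Cox7a2l were well above it. Cox4i2, the lung form of subunit 4, stood at 11.2, 5.53 and 5.96 in controls, 1.96, 4.26 and 3.31 in ORX and 4.05, 3.87 and 4.94 in ORX+DHT, on 2 to 9 reads per library. Cox6b2, the testis form of subunit 6b, had 0 to 2 reads in a library, while Cox6b1 stood at 469, 501 and 519 in ORX and 561, 549 and 561 in ORX+DHT without overlap (log2 difference 0.17, limma adjusted p = 0.356). Ndufa4, now placed in complex IV, stood at 1338, 736 and 695 in controls, 596, 644 and 654 in ORX and 715, 684 and 712 in ORX+DHT. ORX lay below both other groups, with log2 differences of -0.48 after orchiectomy (limma adjusted p = 0.690), -0.18 without control replicate 1 (limma adjusted p = 0.520) and 0.16 with dihydrotestosterone (limma adjusted p = 0.377). Its relative Ndufa4l2 stood at 12.2 to 28.7 over the 9 libraries with all groups overlapping. Cox7a2l, an assembly factor of respiratory supercomplexes counted here by its name, was highest of the complex after orchiectomy at -0.08, which became 0.20 without control replicate 1, and lowest with dihydrotestosterone at -0.10. The processed gene copy Cox5b-ps stood at 3.32 to 11.1.

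Complex V makes ATP. Its catalytic subunit gene Atp5b stood at 8025, 6572 and 6823 normalised counts in control muscle, 6043, 6383 and 6635 in ORX and 6578, 6359 and 6917 in ORX+DHT. All groups overlapped, and the log2 differences were -0.16 after orchiectomy, -0.08 without control replicate 1 and 0.06 with dihydrotestosterone. Atp5a1, the alpha subunit beside it, stood at 6203, 5215 and 5436 in controls, 4309, 4774 and 4994 in ORX and 5238, 5160 and 5336 in ORX+DHT. Here ORX lay below both other groups, with log2 differences of -0.26 after orchiectomy (limma adjusted p = 0.737), -0.19 without control replicate 1 (limma adjusted p = 0.474) and, with dihydrotestosterone, 0.16 (SE 0.08, limma adjusted p = 0.343), the latter -0.002 under quantile normalisation. Atp5d, the delta subunit of the rotating stalk, stood at 988, 557 and 540 in controls, 466, 509 and 505 in ORX and 592, 583 and 620 in ORX+DHT. ORX+DHT lay above ORX and above controls 2 and 3, with a log2 difference of 0.28 against ORX (SE 0.08, limma adjusted p = 0.0694), the lowest p after Ndufs4, for which it was named.

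The 3 genes for subunit c, which forms the proton-carrying ring, give the same mature protein. Their levels in ORX were 1506 normalised counts per kilobase for Atp5g3, 153 for Atp5g1 and 131 for Atp5g2. The value of Atp5g1 depends on the length used, because its annotated transcripts run from 596 to 4715 bases. Atp5g1 stood at 820, 459 and 475 in controls, 386, 413 and 426 in ORX and 472, 450 and 527 in ORX+DHT, with ORX below both other groups (log2 difference with dihydrotestosterone 0.24, limma adjusted p = 0.188). Atp5g3 stood at 2090, 1255 and 1266, at 1025, 1086 and 1136 and at 1176, 1166 and 1229, where no 2 groups overlapped and ORX was lowest (log2 difference with dihydrotestosterone 0.14, limma adjusted p = 0.438). Atp5g2 stood at 68.6 to 116 over the 9 libraries, with all groups overlapping. Atp5l, a membrane subunit, had the highest fold change of the complex with dihydrotestosterone, 0.28 (SE 0.14, limma adjusted p = 0.365), and Atp5h, a stalk subunit, the lowest, -0.03. Atp5k, the small membrane subunit e, was lowest after orchiectomy at -0.57 (limma adjusted p = 0.695), which was -0.18 without control replicate 1. Of the 17 genes, 16 were higher with dihydrotestosterone and 1 lower. Atpif1, the inhibitor protein of complex V and not among the 86 genes, had log2 differences of -0.54 (limma adjusted p = 0.795) after orchiectomy, -0.10 (limma adjusted p = 0.954) without control replicate 1 and -0.08 (limma adjusted p = 0.954) with dihydrotestosterone.

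Levels per kilobase of transcript compare genes of unequal length. In ORX, Atp5b had the highest level, 3316 normalised counts per kilobase, followed by Atp5a1 at 1824, Cox4i1 at 1551, Atp5g3 at 1506 and Ndufa4 at 1372. In complex III the highest was Uqcrq, a small subunit, at 1097, and in complex II it was Sdha at 753. Complex medians were 328 for I, 523 for II, 633 for III, 506 for IV and 678 for V, and Cycs stood at 48.1. The lowest tested gene of complex I, Ndufb2 at 29.6, has annotated transcripts from 455 to 4371 bases, so its value per kilobase depends on which is used, and the same holds for Atp5g1 (596 to 4715 bases). Complex IV had the widest range, from Cox6b2 at 2.04 to Cox4i1. As shares of the summed normalised counts, which also grow with the length and number of the genes, complex V genes held 39.7% of the total in ORX, complex I 24.3%, complex IV 13.9%, complex III 13.1%, complex II 8.71% and Cycs 0.328%. These shares were 39.7%, 24.1%, 14.0%, 13.3%, 8.44% and 0.366% in ORX+DHT.

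**Figure D5:**
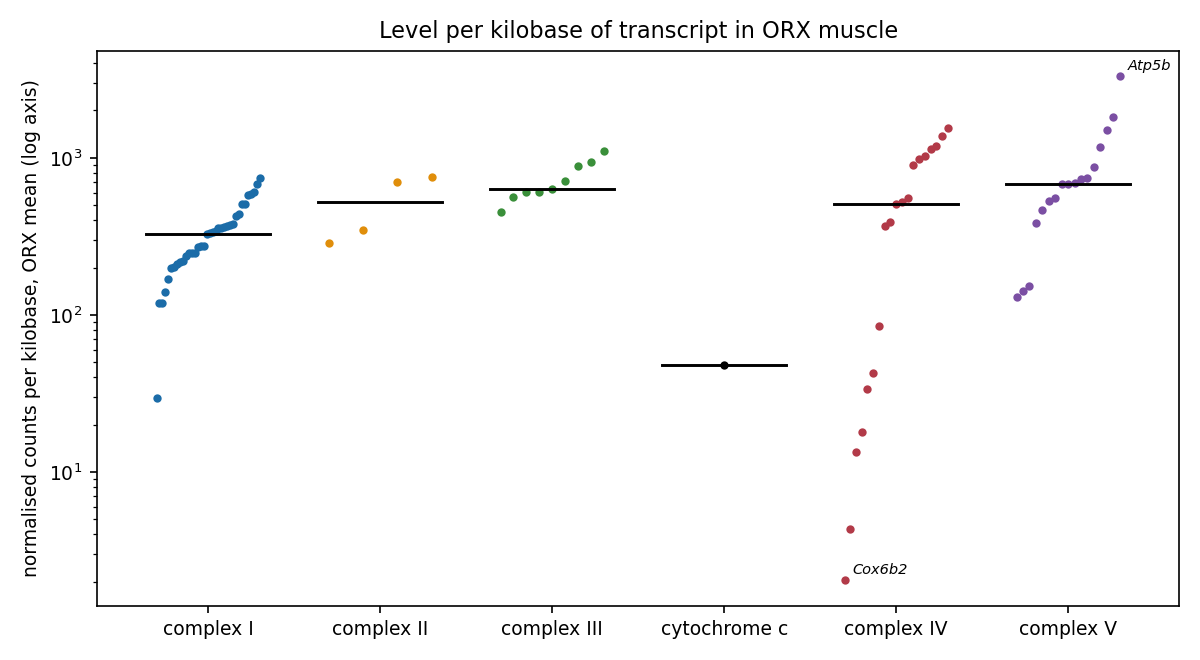
Mean level of each of the 86 genes in the 3 ORX libraries, in normalised counts per kilobase of transcript (y axis, log axis), by complex (x axis); bars are medians, genes are ordered by level within a complex, and the highest and lowest of all are named. Atp5b is highest at 3316 and Cox6b2 lowest at 2.04.

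Other mitochondrial genes were read from lists set by function. In ORX+DHT against ORX, limma called 2 of 16 tested regulators of mitochondrial transcription and biogenesis, both higher. Over all genes, 2.38% were called higher. Perm1, a muscle regulator of genes for energy metabolism, stood at 594, 722 and 711 normalised counts in control muscle, 505, 532 and 505 in ORX and 750, 616 and 724 in ORX+DHT, and rose by a log2 difference of 0.43 (SE 0.09, limma adjusted p = 0.00674). Ppargc1a, the coactivator PGC-1 alpha, stood at 42.5, 85.1 and 105, at 66.7, 78.5 and 61.2 and at 107, 106 and 98.8, and rose by 0.60 (SE 0.13, limma adjusted p = 0.0130). For both, ORX+DHT lay above ORX in every library, and control replicate 1 was the lowest control. The Perm1 call was lost without ORX+DHT replicate 1 (limma adjusted p = 0.0657), and that of Ppargc1a without ORX replicate 3, ORX+DHT replicate 1 or ORX+DHT replicate 2 (limma adjusted p = 0.0510, 0.0753 and 0.0563), and DESeq2 did not call it (adjusted p = 0.0851).

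Genes of mitochondrial membranes and energy transfer gave 3 calls among 14, all higher (2.38% of all genes were called higher). Ckmt2, the mitochondrial creatine kinase of muscle, stood at 5192, 3129 and 3388 in controls, 2313, 2208 and 2365 in ORX and 3873, 3295 and 3732 in ORX+DHT. ORX lay below every other library, and the log2 difference was 0.66 (SE 0.08, limma adjusted p = 3.08e-05). Its call held with each ORX or ORX+DHT library left out and with edgeR and DESeq2, and was lost with all 9 libraries in 1 fit (limma adjusted p = 0.0705), as were the calls of the other genes of these lists. Slc25a4, the ADP/ATP carrier of muscle, rose by 0.28 (limma adjusted p = 0.0423), and Vdac2, an outer membrane channel, by 0.30 (limma adjusted p = 0.0460). Neither of these was called by edgeR (adjusted p = 0.0527 and 0.0597) or DESeq2 (adjusted p = 0.0706 and 0.180). Slc25a4 lost its call without any 1 library but ORX replicate 3 (limma adjusted p = 0.0848 to 0.183), and Vdac2 without any 1 library (limma adjusted p = 0.0520 to 0.173). Among 13 citric acid cycle genes, 12 had a higher mean in ORX+DHT than in ORX, against 50.8% of all genes. No assembly factor was called by limma, edgeR or DESeq2, 0 of 16 for complex I and 0 of 30 for complexes II to V. At an unadjusted p under 0.05 limma picked 4 and 2 of them, where it picked 14.3% of all genes. With the correction for transcript length, with the replicate block or without ORX replicate 3 limma called 1 of the 30, Uqcc3. It is a complex III assembly factor named after its values were seen. The shares of all genes called with the correction and with the block are given in the closing section. That without ORX replicate 3 is not given, so the call in that fit cannot be set against all genes.

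In ORX against control no gene of these lists was called by limma, edgeR or DESeq2 with all 3 controls. At an unadjusted p under 0.05, limma picked 2 of 16 and 2 of 31 assembly factors, 3 of 16 regulators and 2 of 13 citric acid cycle genes. It also picked 4 of 14 membrane and energy transfer genes, against 7.21% of all genes. Without control replicate 1 it picked, in the same order, 0 of 16, 1 of 31, 4 of 16, 3 of 13 and 3 of 14. The share of all genes was then 10.6%. These counts join genes that were lower and genes that were higher in ORX. With the correction for transcript length limma called Ckmt2 lower (log2 difference -0.61, adjusted p = 0.0229, and 0.0357 with the replicate block as well). Without control replicate 1, limma called Ckmt2 lower (log2 difference -0.51, adjusted p = 0.0122), Perm1 lower (-0.48, adjusted p = 0.0250) and Ucp3 higher (0.75, adjusted p = 0.0403). Ucp3, an uncoupling protein of muscle, stood at 368, 206 and 294 in controls, 381, 368 and 505 in ORX and 280, 311 and 390 in ORX+DHT. In the fit without control replicate 1, limma called 0.602% of all genes and 0 of the 83 subunit genes. At that share a count of 0 does not set the subunit genes apart from all genes.

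ORX+DHT was compared with control last, across tables rescaled together. With all controls, 78 of the 83 genes had a lower mean in ORX+DHT and 5 a higher one, with a median log2 difference of -0.29 against -0.005 over all genes. limma called 0 (0.0349% of all 8595 genes), with 2 at an unadjusted p under 0.05, both lower (3.3% of all genes), Ndufa1 and Ndufa8. Both are complex I accessory subunits, named after their values were seen. edgeR and DESeq2 also called 0. The 3 ORX+DHT values lay below the 3 controls for 15 genes (7.12% of all genes). Without control replicate 1, 30 genes were higher and 53 lower, the median was -0.02 against -0.005, and limma called 0 (0.791% of all genes) with 3 at an unadjusted p under 0.05 (9.84% of all genes) and a lowest adjusted p of 0.260, that of Ndufs4. Ndufs4 had a log2 difference of 0.01 with all controls and 0.32 without control replicate 1.

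Among the 83 tested genes, 74 had an ORX mean below the mean of controls 2 and 3, and 63 of these had an ORX+DHT mean above the ORX mean. The 3 ORX libraries enter both comparisons, so a low ORX value enters them with opposite sign, and the count is a description only. ORX replicate 1 had the lowest median of the 3 ORX libraries, -0.09, and leaving it out lowered the median log2 difference of the 83 genes with dihydrotestosterone from 0.11 to 0.06.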

How the data were processed

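PolyA-selected RNA of tibialis anterior muscle from control, ORX and ORX+DHT mice (3 biological replicates each, per the labels) was sequenced with strand-keeping libraries. The authors deposited 2 tables of normalised counts, a signal in which the reads of each protein-coding gene are divided by a factor of the library; one holds control and ORX, the other ORX and ORX+DHT. The submitters' processing notes name Trim Galore 0.6.7, HISAT2 2.2.1, featureCounts 2.0.1, DESeq2 1.36.0 and GRCm38; their settings are not given in the sources used here. The control columns, named sham in the tables, were matched by replicate number, and 0 columns were left unmapped.

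All values (100% within 0.01 of a whole number) were whole multiples of 1 step per column, so reads were recovered, 1340209 to 1682235 per library. The ORX columns of both tables held identical recovered reads in all 3 libraries. Groups that share a table were compared within it, and ORX+DHT was set against control after joint median-of-ratios rescaling of the 14300 shared genes. limma 3.58.1 in R 4.3.3 (eBayes with trend) was run on log2(value + 1), keeping genes whose mean was at least 10, with Benjamini-Hochberg adjustment over all genes tested and calls at an adjusted p under 0.05. This scale understates the change of low genes. edgeR 4.0.16 and DESeq2 1.42.0 on recovered reads were alternatives, as were other pseudocounts, filters and scalings, robust eBayes, 1 fit of all libraries, the replicate number as a block, a loess correction for transcript length (GENCODE M21, the median over a gene's protein-coding transcripts) and each library left out in turn. The fits were tested on simulated data.

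Genes were chosen by symbol. Named were called genes, the extremes of each complex by fold change, the most abundant per kilobase, tissue isoform sets, a fixed set of core subunits, genes below the filter, and called genes of 5 further lists; others are said to be named after their values. Some genes that this rule picks are not reported here. The genes, lists and rules were chosen with earlier results of these data known. Promoter windows came from RefSeq (GRCm38.p6).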

Additional observations from a re-analysis of the deposited data

How the results depend on the processing

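The count of subunit genes called in ORX+DHT against ORX was 1 with limma, edgeR and DESeq2. It was 2 with a minimum mean of 50 (7.87% of all genes were called), 3 with robust eBayes (4.44%), 5 with the correction for transcript length (4.74%), 0 with all 9 libraries in 1 fit (1.43%), and 1 to 2 with a library left out. In the other 2 comparisons it was 0 under every alternative run. Apart from the fits without control replicate 1, shares of all genes are not given beside these 0 counts. They are also missing for the edgeR, DESeq2 and left-out-library counts of ORX+DHT against ORX. Counts without a share do not show whether the subunit genes differ from all genes. The replicate number as a block raised the count in ORX+DHT against ORX from 1 to 5 (6.51% of all genes), and the block with the length correction to 6 (6.65%). The numbers were not taken to pair the mice: same-numbered libraries correlated at 0.06, 0.07 and 0.15 in ORX+DHT against ORX, where each library correlated best with its own number, and at -0.17, 0.06 and -0.11 in ORX against control.

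Small differences of named genes changed sign in places, and the causes were not tested. Under quantile normalisation ORX against control gave Sdha 0.053, Atp5b 0.041, Ndufs1 0.049 and Uqcrc2 0.067, and ORX+DHT against ORX gave Sdha -0.011, Atp5b -0.079, Atp5a1 -0.0023 and Ndufv1 -0.075. Ndufv1 was also -0.0090 with TMM, -0.0072 with edgeR and -0.0056 with DESeq2. The length correction, with or without the block, gave Cox7a2l 0.092 in ORX against control and Cox6a2 0.0032 in ORX+DHT against ORX. Ndufs4 in ORX+DHT against control was -0.040 with edgeR and -0.049 with DESeq2.

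With 1 library left out, ORX against control ranged from -0.12 to 0.0018 for Sdha, -0.26 to 0.20 for Cox7a2l and -0.46 to 0.18 for Ppargc1a. ORX+DHT against ORX ranged from -0.089 to 0.0025 for Sdhb, -0.25 to 0.063 for Cox7a2l, -0.0057 to 0.13 for Ndufs1, -0.085 to 0.062 for Cox6a2, -0.11 to 0.026 for Atp5h, -0.050 to 0.074 for Ndufv1 and -0.27 to 0.080 for Ndufa4l2. Ndufs4 in ORX+DHT against control ranged from -0.17 to 0.32. The difference in the log2 ratio of muscle to general form ranged from -0.23 to 0.081 for Cox6a2 over Cox6a1 and from -0.0082 to 0.37 for Cox8b over Cox8a in ORX against control, and from -0.038 to 0.014 for Cox7a1 over Cox7a2 in ORX+DHT against control. Genes at under 50 reads per library, such as Cox6a1, Cox8a and Cox4i2, are limited by counting error.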
